A study of Mus musculus with 4 samples.

Results

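The genes described here are those of the actin and myosin machinery, taken from the table by their symbols as the actins, α-actinins, myosin heavy chains, myosin light chains, unconventional myosins, tropomyosins and troponins. They were 69 of the 23997 genes in the table. Their RNA-Seq values were compared between Lgr5+ progenitors and Lgr6+ progenitors of the mouse cochlea at postnatal day 3. The Lgr5+ cells were the EGFP+ cells sorted from Lgr5-EGFP-IRES-creERT2 mice and the Lgr6+ cells were the EGFP+ cells sorted from Lgr6-EGFP-IRES-CreERT2 mice (strain C57BL/6 by the labels), so that each population is defined by the reporter of a different line. The labels list 2 libraries per population, whereas the methods describe RNA of each population split into 3 fractions as replicates, and the table holds 1 combined FPKM (fragments mapped to a gene, scaled by transcript length and by library size) for each population. There is therefore no spread between replicates, no test was run, and every difference is a description of these pooled values.

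Actin filaments carry the shape of a cell, and myosins are the motors that pull on them or move along them. Myosin II is built from heavy chains and light chains and contracts the actin belts at the apical junctions of epithelial cells, whereas the unconventional myosins carry cargo or tether membrane. In the hair cell (HC) several unconventional myosins work in the stereocilia, and supporting cells (SCs) such as the pillar cells hold strong actin bundles. Tropomyosins wrap the actin filament, and in striated muscle the troponins sit on tropomyosin and make contraction depend on calcium.

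The sum of FPKM over all genes was 754163 in Lgr5+ cells and 627932 in Lgr6+ cells, which was 83.3% of the Lgr5+ sum. Of all genes, 9439 stood at 0 on the Lgr5+ side and 8215 on the Lgr6+ side. Low values fell on steps of 0.129 in Lgr5+ cells and 0.0401 in Lgr6+ cells when FPKM was multiplied by transcript length in kilobases. If a step is 1 fragment, the Lgr6+ value rests on 3.21 times as many fragments, and low Lgr5+ values are the coarser ones. The sorting genes did not separate the populations by name, since *Lgr5* had an FPKM of 9.65 in Lgr5+ and 24.99 in Lgr6+ cells and *Lgr6* had 2.06 and 2.90. *Sox2*, an SC marker, had 139.6 in Lgr5+ and 54.8 in Lgr6+ cells. Other SC and pillar cell markers did not all follow it, with *Npy* at 258 and 910 and *S100a1* at 2959 and 3177.

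Of the 69 genes, 40 reached an FPKM of 1 in one population or both and were kept for counting, 19 were listed at 0 in both populations, and the other 10 lay below 1 in both. On the log2(FPKM + 1) scale, taken as Lgr6+ minus Lgr5+, 8 of the 40 genes lay at least 2-fold toward Lgr5+ cells, 7 lay at least 2-fold toward Lgr6+ cells and 25 were closer than that. Of all 13436 kept genes, 29.9% were past 2-fold, 11.7% toward Lgr5+ cells and 18.2% toward Lgr6+ cells. The median difference was -0.19 over the 40 genes and 0.03 over all kept genes. The added 1 understates the difference of genes with low FPKM. The split depended on the scaling between the populations, with 3 and 9 genes after scaling to the same sum of FPKM, 4 and 8 after upper quartile scaling and 8 and 4 after quantile normalization. In pooled cells a lower value can mean fewer cells of a type or less RNA per cell, which cannot be told apart here.

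Large differences were spread unevenly over expression levels. Among genes with a mean FPKM of 100 or more (the geometric mean of FPKM + 1 over both populations, less 1), 1 of 8 members was at least 2-fold apart, against 12.0% of all kept genes at that level. From 10 to under 100 it was 6 of 11 members, against 18.2%. From 1 to under 10 it was 7 of 19, against 37.0%, and below 1 it was 1 of 2, against 70.1%. The genes nearest to the 2-fold line were *Myh14* at -1.03 and *Myl7* at -0.96 on the Lgr5+ side, and *Myo18a* at 1.03 and *Actn1* at 0.98 on the Lgr6+ side.

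**Figure D1:**
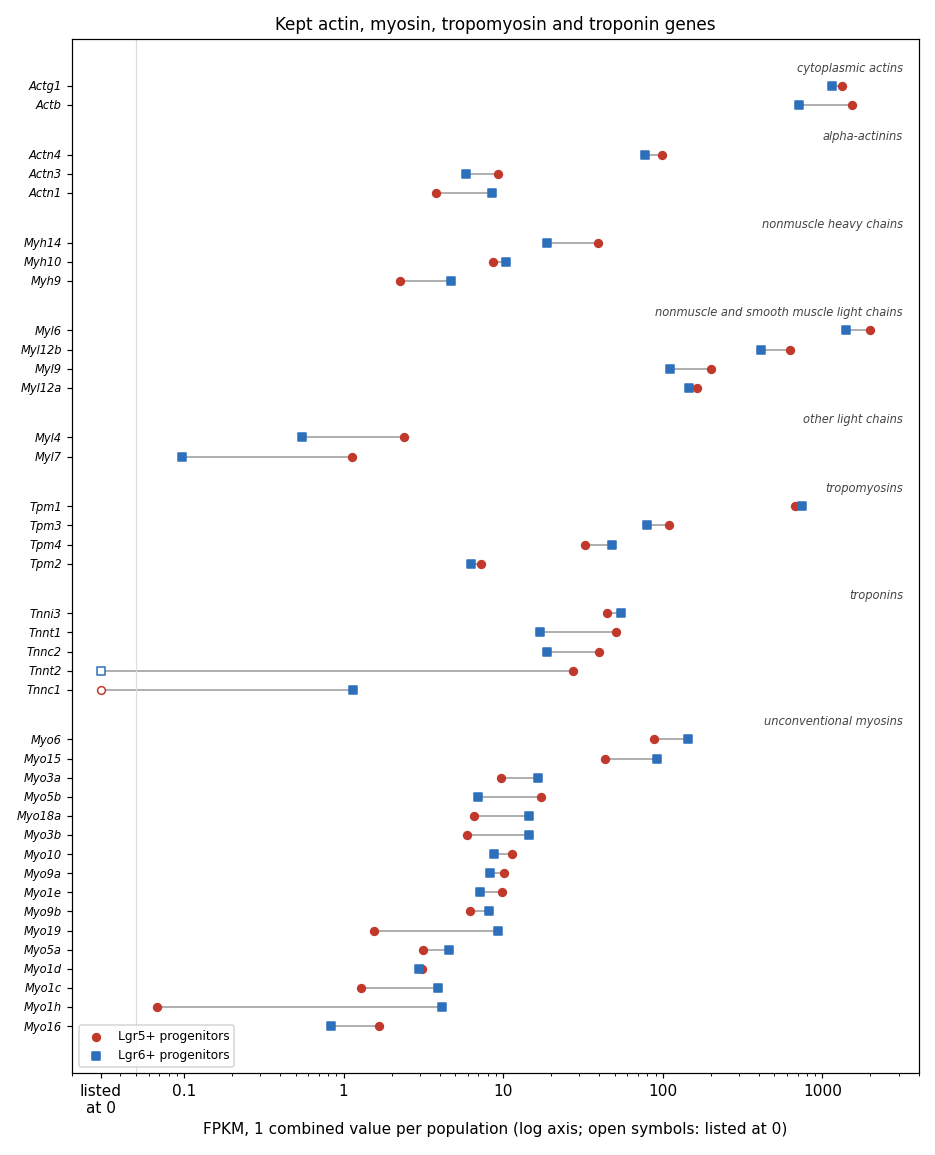
FPKM of the kept genes reported by name in Lgr5+ cells (circles) and Lgr6+ cells (squares) on a log axis, grouped by role, with 1 combined value per population and open symbols for values listed at 0. Cytoplasmic actins, *Myl6* and *Tpm1* lie highest, and *Tnnt2* spans 27.3 to 0.

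Both cytoplasmic actins, which build the filaments of every non-muscle cell, were among the most abundant RNAs. *Actb* (β-actin), by GRCm38 coordinates on chromosome 5 from 142903116 to 142906724, showed FPKM values of 1541 in Lgr5+ cells and 712 in Lgr6+ cells, and it ranked 85 and 156 among all genes. *Actg1* (γ-actin), on chromosome 11 from 120345690 to 120348484, had 1318 and 1151 and ranked 103 and 81. The order of the actins was thus opposite in the populations. *Actb* was 2.16 times as high in Lgr5+ cells, while for *Actg1* the ratio was 1.15. As a share of their sum, which a single scaling factor per population cannot change, *Actb* made up 53.9% in Lgr5+ and 38.2% in Lgr6+ cells. The ratio of *Actg1* to *Actb* was 0.855 in Lgr5+ and 1.62 in Lgr6+ cells. The log2 difference of *Actb* was -1.11, and it came closer than 2-fold after scaling to the same sum (-0.85), upper quartile scaling (-0.96) and quantile normalization (-0.67). No window of 150 bases in the coding transcripts of *Actb* or *Actg1* was shared exactly with another coding transcript. Processed copies in the genome were not searched.

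The muscle actins were at or near 0. *Acta2* and *Actg2*, the smooth muscle actins, and *Actc1*, the cardiac actin, were listed at 0 in both populations, and *Acta1*, the skeletal muscle actin, was listed at 0 in Lgr5+ cells with an FPKM of 0.0933 in Lgr6+ cells. A cytoplasmic actin gene and both striated muscle actin genes carry before their start a CArG box, the motif bound by serum response factor (SRF), a main regulator of actin genes. The stretches around the box are shown because the same motif stands in front of genes at very different levels. *Actg1* and *Myl9* had FPKM values above 100 in both populations, and *Actc1* was listed at 0 in both. *Acta1* and *Myl3* (0.505 in Lgr5+ and 0 in Lgr6+ cells) were near 0. *Myo1e*, at 9.78 and 7.11, lay between. The sequences are those of RefSeq in GRCm38.p6, read 5′ to 3′ on the strand of the gene, with the box in capitals.
Actg1, chr11:120348551-120348610, minus strand: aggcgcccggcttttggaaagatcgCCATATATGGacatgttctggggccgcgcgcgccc
Myl9, chr2:156775278-156775337, plus strand: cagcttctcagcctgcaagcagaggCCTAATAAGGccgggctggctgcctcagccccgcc
Myo1e, chr9:70207293-70207349, plus strand: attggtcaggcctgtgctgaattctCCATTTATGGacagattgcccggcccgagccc
Acta1, chr8:123894814-123894873, minus strand: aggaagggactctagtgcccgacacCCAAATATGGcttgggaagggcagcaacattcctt
Actc1, chr2:114052888-114052947, minus strand: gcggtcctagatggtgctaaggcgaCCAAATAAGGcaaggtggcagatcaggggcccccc
Myl3, chr9:110763568-110763627, plus strand: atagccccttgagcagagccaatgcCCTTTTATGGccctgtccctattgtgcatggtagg

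The boxes of *Actg1*, *Acta1* and *Actc1* begin 90, 73 and 47 bases before the start. A window before the start was found for 59 of the 69 genes. The box was searched as a pattern of 10 letters, CC first, GG last and only A or T between. This pattern, though not each single box, is the same on both strands. It was in the 250 bases before the start for 9 of the genes with a window. Counted by window, 12.5% of the 72 windows of these genes held it, against 1.47% of all 32851 windows of the same length. The boxes found before *Myl6*, *Myl7* and *Myh4* are not shown. Only exact matches were counted and some genes had no window, so a gene not given here may still carry a box. A match describes letters and not a bound site. *Srf* itself had an FPKM of 27.6 in Lgr5+ cells and 7.26 in Lgr6+ cells, a log2 difference of -1.79. Its cofactors *Mkl1* and *Mkl2* had 8.57 and 8.98, and 4.64 and 6.49, and the muscle cofactor *Myocd* was at 0 and 0.154. Of the 3 kept genes of this list, 1 was at least 2-fold higher in Lgr5+ cells and none in Lgr6+ cells. The shares over all kept genes were 11.7% and 18.2%. The median of the list was 0.06.

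**Figure D2:**
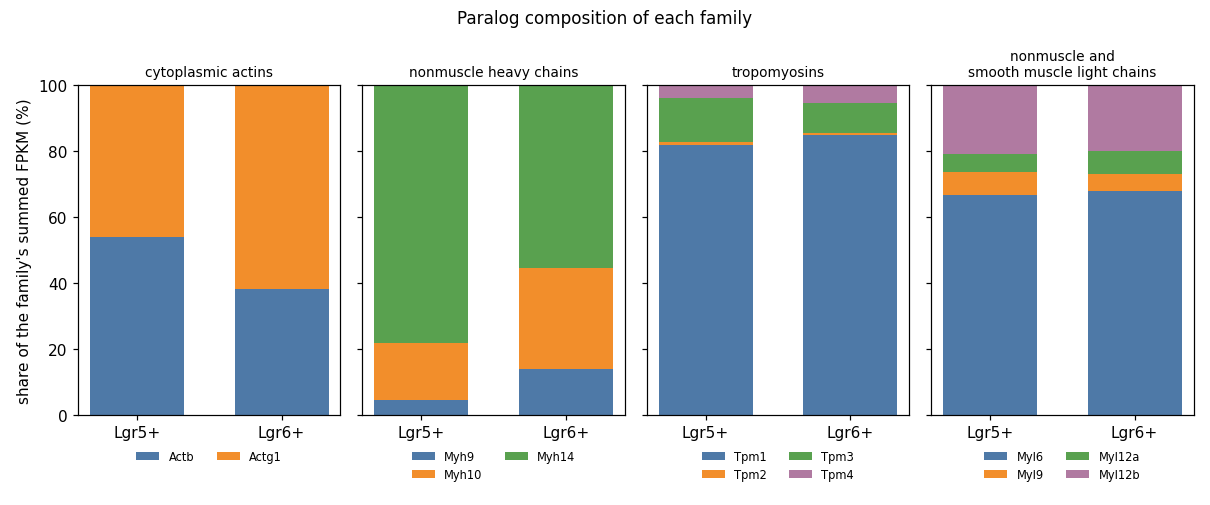
Share of the summed FPKM of a family taken by each gene, in percent, in Lgr5+ and Lgr6+ cells, for the cytoplasmic actins, nonmuscle heavy chains, tropomyosins and the nonmuscle and smooth muscle light chains. *Actb* takes 53.9% of the Lgr5+ bar and 38.2% of the Lgr6+ bar, *Myh14* takes 78.4% and 55.4%, while the shares of the light chains differ by at most 1.51 percentage points.

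The heavy chains of nonmuscle myosin II were present in both populations in different proportions. *Myh14*, the heavy chain of nonmuscle myosin IIC, on chromosome 7 from 44605803 to 44670843, showed FPKM values of 39.5 in Lgr5+ and 18.9 in Lgr6+ cells, so it was 2.10 times as high in Lgr5+ cells. *Myh10*, the heavy chain of myosin IIB, had 8.66 and 10.46, and *Myh9*, the heavy chain of myosin IIA, had 2.25 and 4.71. *Myh14* was the highest of these genes in both populations. It made up 78.4% of their sum in Lgr5+ and 55.4% in Lgr6+ cells, while *Myh10* made up 17.2% and 30.7% and *Myh9* made up 4.46% and 13.8%. The ratio of *Myh14* to *Myh9* was 17.6 in Lgr5+ and 4.002 in Lgr6+ cells. The log2 difference of *Myh14* was under 2-fold after upper quartile scaling (-0.88) and after scaling to the same sum (-0.78), while a single scaling factor leaves these shares as they are. Of the other heavy chains, the smooth muscle chain *Myh11* had an FPKM of 0.0918 and 0.0610. The remaining 9, which serve striated muscle for the most part, were listed at 0 in both populations except *Myh15* (0.0463) and *Myh6* (0.0209), which had a value in Lgr6+ cells only.

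The light chains that pair with nonmuscle and smooth muscle myosin II were all lower in Lgr6+ cells, and each was closer than 2-fold. *Myl6*, the essential light chain, had an FPKM of 1991 in Lgr5+ and 1411 in Lgr6+ cells and was the highest gene of all 69 in both. Among the regulatory light chains, through which phosphorylation switches the motor on, *Myl12b* had 626 and 413. *Myl12a* had 163 and 145, and *Myl9* had 202 and 111, which was the largest difference of the group at -0.85. Their median difference was -0.55. After scaling to the same sum the median was -0.28 with 1 of the 4 genes above 0, and after quantile normalization it was -0.20 with 1 above 0. The composition hardly differed, with *Myl6* at 66.8% and 67.8% of the sum. The summed light chains were 59.1 times the summed nonmuscle heavy chains in Lgr5+ and 61.1 times in Lgr6+ cells, per length. For *Myl6*, 12.98% of the windows of 150 bases were shared with *Gm8894*, so part of its reads cannot be told apart from that copy.

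Muscle light chains were scarce. *Myl4*, the atrial and fetal essential chain, had an FPKM of 2.40 in Lgr5+ and 0.552 in Lgr6+ cells, a difference of -1.13. *Myl7*, the atrial regulatory chain, had 1.13 and 0.0968, which is 3.43 steps of the low Lgr5+ values and 0.942 of the Lgr6+ values. *Myl3* had 0.505 and 0, *Myl6b* had 0.153 and 0, and *Myl1*, *Myl2* and *Myl10* were listed at 0 in both.

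The α-actinins crosslink actin filaments and tie them to junctions. *Actn4* had an FPKM of 98.5 in Lgr5+ and 77.1 in Lgr6+ cells, and *Actn1* had 3.81 and 8.49. These are the non-muscle forms, and *Actn4* was far the higher of them in both populations. *Actn3*, known from fast skeletal muscle fibres, had 9.26 and 5.85, and *Actn2*, the Z-disc form of striated muscle, was listed at 0 in both. *Actn1*, at 0.98, was the highest of the group toward Lgr6+ cells, and it passed 2-fold with a pseudocount of 0.1, without one, and after upper quartile or equal-sum scaling.

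Tropomyosins differed little. *Tpm1*, on chromosome 9 from 67022593 to 67049213, showed FPKM values of 676 in Lgr5+ and 744 in Lgr6+ cells and ranked 196 and 149 among all genes. It held 81.9% and 84.7% of the tropomyosin sum. *Tpm3* had 109 and 79.7, *Tpm4* had 32.4 and 48.2, and *Tpm2* had 7.21 and 6.27. No tropomyosin was 2-fold apart, and the sum of the family was 825 in Lgr5+ and 878 in Lgr6+ cells. The family was thus 1.06 times as high in Lgr6+ cells, where the sum of the cytoplasmic actins was 0.651 times as high. For *Tpm3*, 32.2% of the windows of 150 bases were shared with *Tpm3-rs7*. The table has 1 value per gene, so the muscle and non-muscle isoforms that each tropomyosin gene makes by splicing are not separated.

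Of 8 troponin genes, 5 were kept, 3 lay at least 2-fold toward Lgr5+ cells and 1 toward Lgr6+ cells, with a median of -1.05. Over all kept genes the shares were 11.7% toward Lgr5+ cells and 18.2% toward Lgr6+ cells. Troponins are the calcium switch of striated muscle, whereas the striated muscle actins and heavy chains had an FPKM of at most 0.0933. *Tnnt2*, the cardiac troponin T, on chromosome 1 from 135836334 to 135852268, showed FPKM values of 27.3 in Lgr5+ cells and was listed at 0 in Lgr6+ cells. The Lgr5+ value corresponds to about 191 steps of the low values, and no fold is given against 0. *Tnnt1*, the slow skeletal troponin T, had 50.8 and 17.1, which was 2.96 times as high in Lgr5+ cells. *Tnnc2*, the fast skeletal troponin C, had 39.9 and 18.8, and *Tnni3*, the cardiac troponin I, had 44.96 and 55.1. The troponins with values were thus a mixture of cardiac, slow and fast forms, and the difference of *Tnni3*, 1.23 times as high in Lgr6+ cells, was opposite to that of *Tnnt1*, *Tnnt2* and *Tnnc2*. *Tnnc1*, the cardiac and slow troponin C, was listed at 0 in Lgr5+ and had 1.15 in Lgr6+ cells, at about 14.9 steps. *Tnni1*, *Tnni2* and *Tnnt3* were listed at 0 in both.

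Troponin I and troponin T genes lie in pairs along the chromosomes. *Tnnt1* and *Tnni3* lie 2332 bases apart on chromosome 7, and *Tnnt1* was lower in Lgr6+ cells where *Tnni3* was higher. *Tnnt2* lies 25344 bases from *Tnni1*, which was listed at 0 in both, and *Tnni2* and *Tnnt3*, at 16406 bases apart, were both listed at 0 in both. After upper quartile scaling and after scaling to the same sum the log2 difference of *Tnnc2* was closer than 2-fold (-0.90 and -0.79), while that of *Tnnt1* was -1.37 and -1.26.

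Muscle cell markers were for the most part low or at 0. For the counts below, the shares over all kept genes were 18.2% toward Lgr6+ and 11.7% toward Lgr5+ cells. Of 10 skeletal muscle markers, 3 were kept, and the summed FPKM of the list was 1.08 in Lgr5+ and 4.74 in Lgr6+ cells. *Ckm*, *Myf5*, *Pax7* and *Cacna1s* were listed at 0 in both. Among the kept ones, *Casq1* had 0 and 1.85 and *Myog* had 0 and 1.74, past the 2-fold line toward Lgr6+ cells. *Ryr1*, the other kept marker, had 1.07 and 0.497 and stayed within that line. Of 7 cardiac muscle markers, 3 were kept, with sums of 31.2 and 19.1, of which *Nppa* made up 26.2 and 11.7, and *Nppb*, *Nkx2-5*, *Tbx20* and *Mybpc3* were listed at 0 in both. Of 11 markers of pericytes and vascular smooth muscle, 6 were kept, with sums of 33.5 and 34.2. *Rgs5*, at 0 and 2.64, and *Tagln*, at 2.97 and 7.84, passed the 2-fold line toward Lgr6+ cells. The other kept genes of that list stayed within it, among them *Lmod1*, the highest, at 13.9 and 9.40, and *Pdgfrb* at 8.25 and 5.69. Of the 26 genes of the sarcomere and Z-disc list, 11 were kept and 9 were listed at 0 in both. *Tcap*, the titin cap, had 16.2 in Lgr5+ and 2.62 in Lgr6+ cells and was the gene of that list that lay at least 2-fold toward Lgr5+ cells. *Mybpc1*, *Myom1*, *Casq1* and *Xirp2* lay at least 2-fold toward Lgr6+ cells, and the median of the list was 0.13. *Des* and *Ttn*, the desmin and titin of every striated muscle, stood at 0 and 0.0141, and at 0.00580 and 0.0420.

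**Figure D3:**
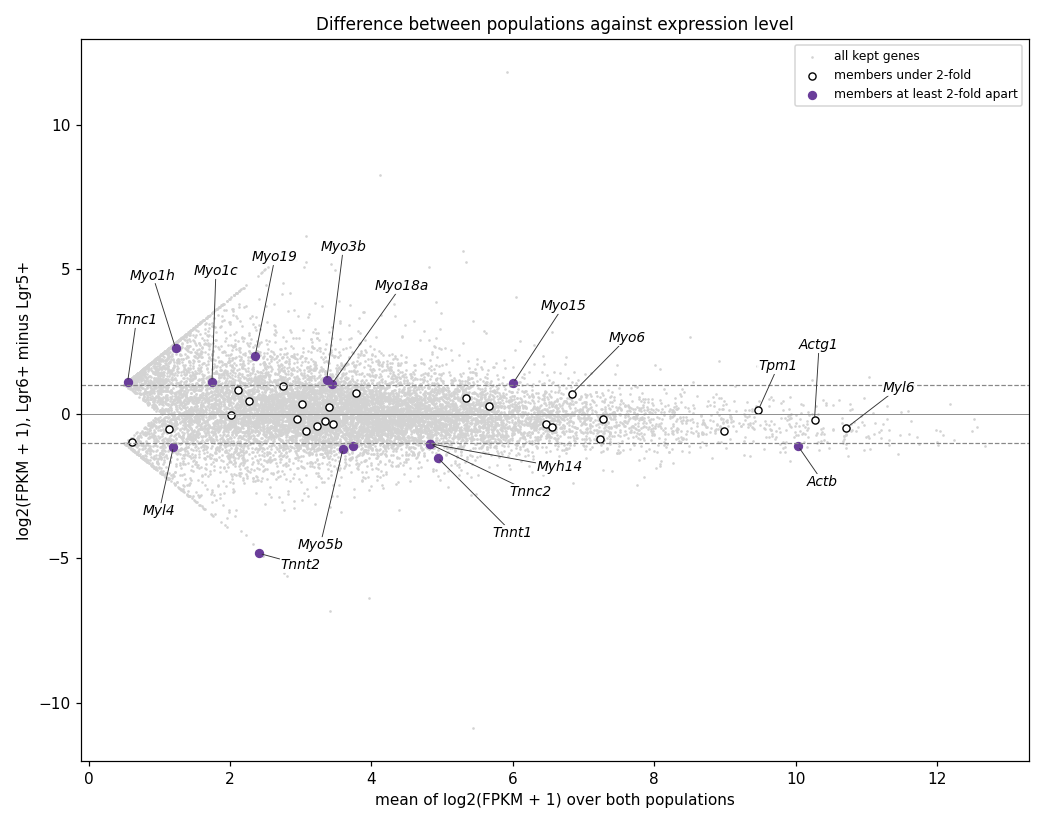
Difference in log2(FPKM + 1), Lgr6+ minus Lgr5+, against the mean of log2(FPKM + 1) over both populations for all 13436 kept genes (grey) and the 40 kept members (circles), with dashed lines at 2-fold. Filled circles are the 15 members at least 2-fold apart, among which *Tnnt2* at -4.82 and *Myo1h* at 2.27 lie farthest out.

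Of 23 unconventional myosins, 17 were kept, of which 6 were at least 2-fold higher in Lgr6+ cells and 2 in Lgr5+ cells. Of all kept genes, 18.2% lay past 2-fold toward Lgr6+ cells and 11.7% toward Lgr5+ cells. The median difference of the kept unconventional myosins was 0.43, beside 0.03 over all kept genes. It ran from 0.21 after quantile normalization, beside -0.03, to 0.65 after scaling to the same sum, beside 0.28. Over the 23 genes without a filter it was 0.17, beside 0 over all genes. The summed FPKM of the 23 genes was 239.9 in Lgr5+ and 355 in Lgr6+ cells.

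*Myo6* and *Myo15* were the most abundant of them in both populations, and the myosins of the hair bundle named here stood higher in Lgr6+ cells. *Myo6*, the minus-end-directed motor that anchors the stereocilia, had an FPKM of 88.7 in Lgr5+ and 144 in Lgr6+ cells, 1.62 times as high. *Myo15*, which carries elongation factors to the stereocilia tips, on chromosome 11 from 60469339 to 60528368, had 43.4 and 91.8, 2.12 times as high. *Myo3b* and *Myo3a*, the class III myosins of the stereocilia tips, had 5.90 and 14.4, and 9.73 and 16.6. All 4 were therefore higher in the Lgr6+ cells, by 1.62 to 2.44 times. After quantile, upper quartile or equal-sum scaling the log2 differences of *Myo6*, *Myo15* and *Myo3b* ran from 0.84 to 1.41. *Myo1c*, a motor that works in hair cell adaptation and in membrane traffic, had 1.28 and 3.91, and it was closer than 2-fold after quantile normalization.

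Markers of hair cells were also higher in Lgr6+ cells. Of 14 HC markers, 13 were in the table and kept, 7 were at least 2-fold higher in Lgr6+ and none in Lgr5+ cells, and their median difference was 1.07. Their summed FPKM was 846 in Lgr5+ and 1483 in Lgr6+ cells. Over all kept genes, 18.2% lay at least 2-fold toward Lgr6+ and 11.7% toward Lgr5+ cells. *Pou4f3*, a transcription factor of hair cells, had 31.0 and 49.0, *Gfi1* had 19.5 and 55.5, and *Atoh1* had 30.9 and 36.4. *Ocm*, an outer HC calcium buffer, had 15.3 and 268, and *Calb2* had 27.6 and 165, while *Pvalb* had 477 and 408. No HC marker was listed at 0 in either population. Their part in the higher values of *Myo6*, *Myo15*, *Myo3a* and *Myo3b* was not tested. Of 10 SC and pillar cell markers, *Npy* and *Lgr5* were at least 2-fold higher in Lgr6+ cells and *Sox2* in Lgr5+ cells. The other 7 were closer than that. The sums were 3701 and 4453, and the median was -0.11.

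*Myo5b*, the motor of recycling endosomes in epithelia, had an FPKM of 17.4 in Lgr5+ and 6.99 in Lgr6+ cells, 2.48 times as high in Lgr5+ cells. After scaling to the same sum it was closer than 2-fold. *Myo5a*, the melanosome and vesicle motor, had 3.14 and 4.59, and *Myo5c* was below 1 in both.

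*Myo19*, the motor on mitochondria, on chromosome 11 from 84876313 to 84916356, showed FPKM values of 1.56 in Lgr5+ and 9.23 in Lgr6+ cells, 5.93 times as high. Its interval overlaps those of *Znhit3*, at 11.7 and 16.6, and *Pigw*, at 0.487 and 0.920. *Myo1h*, a class I myosin, had 0.0674 and 4.15, and its Lgr5+ value corresponds to about 2.32 steps. The interval of *Myo1h* overlaps *Kctd10*, at 14.7 and 21.2. These intervals span whole genes, and whether the exons overlap was not examined. The strand used in counting is not given in the sources used here, so reads in any shared stretch may not be told apart. *Myo18a*, which binds actin beside the Golgi, had 6.59 and 14.5, 2.19 times as high in Lgr6+ cells, and it was closer than 2-fold after quantile normalization.

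The kept unconventional myosins named next differed by less than 2-fold. *Myo10*, the filopodial myosin, had 11.3 in Lgr5+ and 8.74 in Lgr6+ cells, and *Myo1e* had 9.78 and 7.11. *Myo9a* had 10.1 and 8.24, and *Myo9b* had 6.20 and 8.14. *Myo1d* had 3.08 and 2.96, and *Myo16* had 1.66 and 0.831. Of the 6 genes below 1 in both, *Myo1g* and *Myo7b* were listed at 0 in both populations, *Myo1a* and *Myo1f* were listed at 0 in Lgr5+ cells alone, and *Myo18b*, a striated muscle myosin, had 0.721 and 0.0554.

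*Myo1f* is a myosin of white blood cells, and it had 0.312 in Lgr6+ cells. Leukocyte genes of the actin machinery stood in the same population, *Coro1a* at 0 and 6.72 and *Lcp1* at 0.0364 and 3.43. Of 9 macrophage markers, 7 were kept and all 7 were at least 2-fold higher in Lgr6+ cells. Their sum was 1.47 in Lgr5+ and 256 in Lgr6+ cells, and 6 of the 9 were listed at 0 in Lgr5+ cells. Here too the shares over all kept genes were 18.2% toward Lgr6+ and 11.7% toward Lgr5+ cells. Endothelial markers had sums of 11.3 and 82.5, with 6 of 7 at least 2-fold higher in Lgr6+ cells. Mesenchyme and fibrocyte markers had sums of 320.4 and 577, Schwann cell and glia markers 73.7 and 262, and neuron markers 104.5 and 117, with 3 of 8, 3 of 5 and 2 of 6 at least 2-fold higher in Lgr6+ cells and 1 neuron marker in Lgr5+ cells. Erythroid markers went the other way, with sums of 629.8 and 108 and 4 of 5 kept genes at least 2-fold higher in Lgr5+ cells. The part of these cells in the values of the ubiquitous actin and myosin genes, such as *Actb*, *Myh9* and *Myl9*, was not tested.

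The remaining actin machinery was compared through lists of partner genes. Of 42 genes of actin assembly and turnover, 39 were kept, 5 were at least 2-fold higher in Lgr6+ and 2 in Lgr5+ cells. The shares over all kept genes were 18.2% and 11.7%. The median of the list was -0.00. *Cfl1*, the cofilin that severs filaments, had 611 and 829.7, and *Pfn1*, the profilin that feeds actin monomers, had 929 and 734. The thymosins that hold monomers in reserve lay opposite each other, *Tmsb4x* at 1651 and 2405 and *Tmsb10* at 3107 and 2108. *Cap1*, *Cap2*, *Tmod3*, *Wasf1* and *Coro1a* were the genes toward Lgr6+ cells, and *Diap2* and *Wasf3* those toward Lgr5+ cells.

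Of 26 bundling, crosslinking and membrane-linking genes, 24 were kept, 6 were at least 2-fold higher in Lgr6+ and 1 in Lgr5+ cells, and the median was 0.44. *Espn*, the espin of hair bundles, had 193 and 259.8, *Eps8l2* had 32.7 and 71.1, and *Vcl*, the vinculin of adhesion sites, had 5.78 and 18.2. *Rdx*, the radixin that links actin to the membrane, was the gene at least 2-fold toward Lgr5+ cells, with 90.1 in Lgr5+ and 36.8 in Lgr6+ cells. *Fscn2*, a fascin, was also lower in Lgr6+ cells, at 49.1 and 33.1. Of the kept genes of this list, 19 lay above 0 and 5 below. Of 22 genes that control myosin contraction, 19 were kept, 6 were at least 2-fold higher in Lgr6+ and 1 in Lgr5+ cells, and the median was 0.55. *Rhoa* had 27.7 and 49.0, *Rhob* had 1.99 and 9.45, and *Tagln2*, a transgelin, had 7.46 and 35.8. The kinases *Rock1* and *Rock2*, which raise light chain phosphorylation, had 29.2 and 18.6, and 11.6 and 7.79. Other kinases of the list did not all follow them. *Cit* had 0.271 and 2.22, *Mylk* had 3.38 and 3.44, and *Dapk3* had 58.2 and 52.9. *Ppp1cb*, the catalytic subunit of myosin phosphatase, had 27.6 and 59.5. Its partner subunits *Ppp1r12a*, *Ppp1r12b* and *Ppp1r12c* had 19.9 and 21.8, 3.01 and 6.63, and 24.2 and 21.8, each closer than 2-fold on this scale. Phosphorylation itself was not measured. *Cnn2*, a calponin, was the gene at least 2-fold toward Lgr5+ cells, with 46.7 and 14.9. The counts stand beside 18.2% toward Lgr6+ and 11.7% toward Lgr5+ cells over all kept genes, and the medians beside 0.03. Scaling to the same sum moved the median of all kept genes to 0.28, and the medians of these lists under that scaling were not computed.

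**Figure D4:**
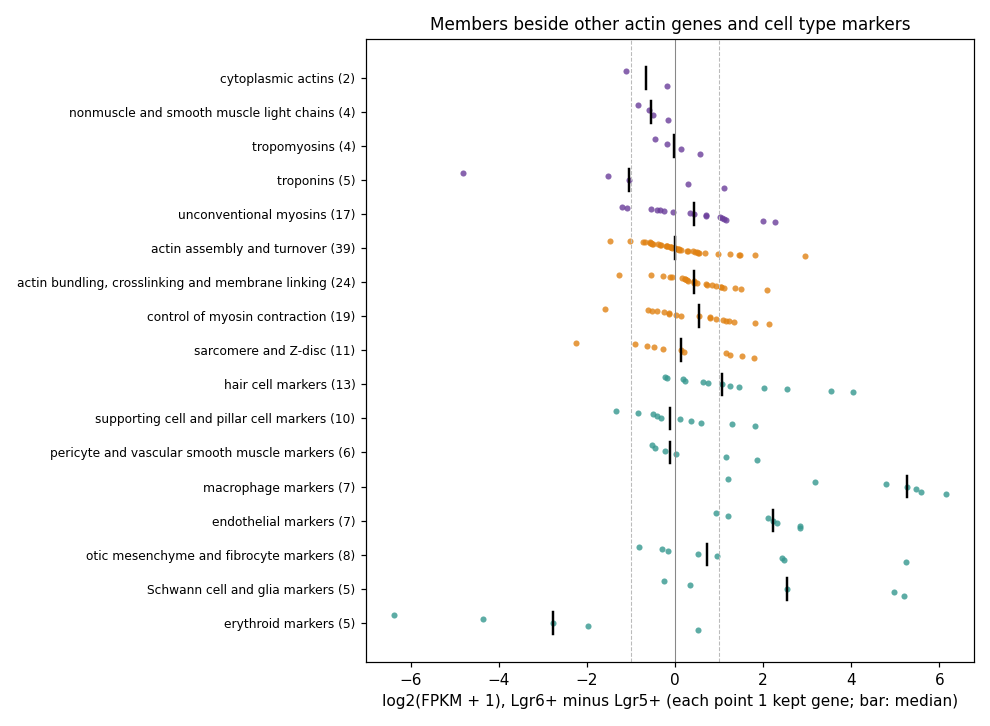
Difference in log2(FPKM + 1), Lgr6+ minus Lgr5+, of each kept gene (points) with the median (bar) for member groups (purple), partner lists (orange) and cell type markers (green), the number of genes in brackets, and dashed lines at 2-fold. Macrophage markers lie farthest toward Lgr6+ cells, erythroid markers farthest toward Lgr5+ cells, and the medians are -0.55 for the light chains, 0.43 for the unconventional myosins and 1.07 for the hair cell markers.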

How the data were processed

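The samples were 4 libraries of sorted cells, 2 labelled Lgr5+ and 2 labelled Lgr6+. Trimmomatic for trimming, TopHat for mapping and Cufflinks for FPKM are the tools in the submitters' processing notes, whose versions are not given in the sources used here, and the FPKM that the authors deposited is 1 combined value per population. The deposited fold changes, *p*-values and *q*-values are the authors' own comparison and were not used. The submitters' notes name mm10 and the methods mm9, and 99.4% of the intervals of 22369 genes overlapped the same gene in GRCm38.p6. Interval starts were raised by 1 to count from 1.

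Genes reaching an FPKM of 1 in one population or both were kept, and differences were taken on log2(FPKM + 1) and counted from 2-fold. Alternatives were a pseudocount of 0.1 or none, a minimum FPKM of 0 or 5 or of 1 in both populations, quantile, upper quartile and equal-sum scaling, and a 1.5-fold threshold. No limma fit was run, since it needs values per library. A further myosin symbol that the patterns match was left out, and 1 counted member is not reported here by name. Genes named with values were those past 2-fold, the highest of each role group, all of groups of 6 or fewer, and those nearest to the 2-fold line, while any further gene was picked with its values in view. The members and lists were chosen with earlier results of these data known. Some genes stand in more than one list, such as *Tagln*, *Cnn1*, *Lmod1*, *Mylk*, *Myocd* and *Xirp2*. Steps were read from genes with 1 coding transcript in GENCODE vM1, as FPKM times transcript length less 200 bases, within 3% of the step, where 101 values lay at the Lgr5+ step against 9 beside it and 40 at the Lgr6+ step against 9.5. Coding transcripts were found for 68 of the 69 members. The steps of a member were counted with its longest coding transcript, so they are approximate for genes with several transcripts. Counts of reads are not in the table, so no interval is given. Python 3.11.15 was used with pandas 2.3.3, numpy 2.4.6 and matplotlib 3.10.9. The 2-fold calls and the quantile normalization were tested on simulated data, and the other calculations were not.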

Additional observations from a re-analysis of the deposited data

How the results depend on the processing

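With 1 combined value per population, the replicates could not be left out in turn. No paired analysis was possible because the columns carry no replicate. The count of members at least 2-fold higher in Lgr5+ progenitors, 8 as reported, was 4 after upper quartile scaling and 3 after scaling to the same sum. The count toward Lgr6+ progenitors, 7 as reported, was 4 at a minimum FPKM of 5, 4 after quantile normalization and 11 at a 1.5-fold threshold. The median difference of the kept members, -0.19 as reported, was 0 without a filter, -0.30 after quantile normalization, -0.041 after upper quartile scaling and 0.062 after scaling to the same sum. Upper quartile and equal-sum scaling moved the median of all kept genes from 0.03 to 0.18 and 0.28. Of 32 named members with a value, 13 crossed a fold threshold under at least 1 alternative. For *Myl12b*, *Myl9* and *Myo6* this came only from the 1.5-fold threshold, with their values unchanged. None that was 2-fold apart changed direction where it was kept. This says little, since pseudocounts, filters and thresholds cannot change a sign. The shifts by upper quartile and equal-sum scaling were far smaller than 2-fold. The depth of each library is not known, and values of a few steps, such as those of *Myl7* and the Lgr5+ value of *Myo1h*, rest on few fragments if a step is 1 fragment.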
